A study of Mus musculus with 6 samples.

Results

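The response of As4.1 cells to an interleukin was read from 4 of the 6 arrays of the series, the 2 interleukin arrays and the 2 vehicle arrays, as the sample titles give them. All 45037 probe sets that are not array controls were members of the comparison. Of these, 22519 were bright enough to be tested, with a geometric mean signal over the 6 arrays of at least 193.7, and they stood for 10892 of the 18193 genes on the array. As4.1 is a single mouse line grown from a kidney tumour of renin-producing cells, which arose in an animal carrying a viral oncogene under a renin promoter. The 3 groups of the series received vehicle, hydrogen peroxide or an interleukin, each read on 2 Affymetrix arrays of the same line. The sample titles number the arrays of a group and do not say whether they came from separate cultures. The labels specify neither the interleukin nor a dose or a time, and renin is not analysed here. A probe set is the group of short probes that reads a transcript, and its MAS5 signal, which is linear, can be compared between arrays but not with that of another probe set.

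Interleukins are secreted proteins that act on neighbouring cells through surface receptors. Those of the inflammatory type lead to the entry of NF-kappaB, C/EBP, AP-1 and STAT proteins into the nucleus, where these factors bind short motifs near the start of their target genes. The targets include chemokines, which draw leukocytes, acute-phase proteins, which the liver releases in large amounts during inflammation, and inhibitors that switch the same pathways off again. Renin-producing cells are modified smooth muscle cells of the kidney arteriole, and in them inflammatory cytokines are known to lower renin transcription and cyclic AMP is known to raise it.

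The stretches of 250 bases before the start of 5 genes that rose are shown because their letters hold matches to the motifs of these factors. They were chosen after the values had been seen. The sequences are from RefSeq, build GRCm38.p6, and each is written 5′ to 3′ along the gene's own strand, with matches in capitals. Saa3 lies at chr7:46715677-46715926 on the minus strand and Saa4 at chr7:46732604-46732853 on the minus strand. Il6 lies at chr5:30012864-30013113, Steap4 at chr5:7960222-7960471 and Ifit3 at chr19:34583279-34583528, all on the plus strand.
Saa3: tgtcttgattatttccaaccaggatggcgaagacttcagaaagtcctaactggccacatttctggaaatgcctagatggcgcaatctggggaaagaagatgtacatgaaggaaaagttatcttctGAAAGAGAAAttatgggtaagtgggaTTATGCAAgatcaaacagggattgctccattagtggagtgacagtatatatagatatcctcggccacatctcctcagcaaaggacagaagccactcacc
Saa4: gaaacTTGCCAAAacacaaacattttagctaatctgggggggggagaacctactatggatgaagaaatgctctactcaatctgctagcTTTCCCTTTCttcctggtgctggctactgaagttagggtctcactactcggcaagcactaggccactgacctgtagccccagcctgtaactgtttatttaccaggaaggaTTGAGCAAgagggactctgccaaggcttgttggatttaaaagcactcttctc
Il6: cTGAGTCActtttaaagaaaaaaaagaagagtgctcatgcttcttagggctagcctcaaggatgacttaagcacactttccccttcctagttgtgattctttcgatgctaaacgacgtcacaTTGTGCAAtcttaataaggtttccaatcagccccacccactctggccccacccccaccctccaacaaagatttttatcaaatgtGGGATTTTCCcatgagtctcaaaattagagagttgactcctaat
Steap4: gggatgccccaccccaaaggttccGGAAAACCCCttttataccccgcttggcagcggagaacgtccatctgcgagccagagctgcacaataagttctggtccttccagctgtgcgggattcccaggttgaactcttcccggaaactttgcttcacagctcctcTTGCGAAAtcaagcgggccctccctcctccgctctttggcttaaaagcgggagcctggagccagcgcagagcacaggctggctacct
Ifit3: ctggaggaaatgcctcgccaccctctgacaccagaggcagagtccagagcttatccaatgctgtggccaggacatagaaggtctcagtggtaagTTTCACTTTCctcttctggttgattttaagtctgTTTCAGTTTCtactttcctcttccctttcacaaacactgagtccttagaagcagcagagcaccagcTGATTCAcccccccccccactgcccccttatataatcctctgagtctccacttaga

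The motifs searched on both strands were GGG, any 2 bases and TTTCC for NF-kappaB, GAAA, any 2 bases and GAAA for the interferon-stimulated response element, which STAT and IRF proteins bind, TTGC, any 2 bases and AA for C/EBP, and TGA, any base and TCA for AP-1. Il6 held the NF-kappaB motif 44 bases before the start, counted to its first base, the C/EBP motif 128 bases before it and the AP-1 motif 249 bases before it. Steap4 held the NF-kappaB motif 226 bases and the C/EBP motif 87 bases before the start. Saa3 held the interferon motif at 125 bases and the C/EBP motif at 99 bases, and Saa4 held the interferon motif at 162 bases and C/EBP motifs at 245 and 52 bases. Ifit3 held the interferon motif at 156 and 122 bases and the AP-1 motif at 56 bases. Over all 27025 genes with promoters of the same length in the table the NF-kappaB motif was in 1.65%, the interferon motif in 3.46%, the C/EBP motif in 10.8% and the AP-1 motif in 7.82%. A gene counted when any of its promoters held the motif. A match describes letters only, and no binding was measured.

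Of the tested probe sets, 3627 were called different at an adjusted p under 0.05 (16.1%), 1708 higher (7.58%) and 1919 lower (8.52%) with interleukin. Counted by gene through the brightest tested probe set, 1065 of 10892 genes were higher (9.78%) and 720 lower (6.61%), and at a fold of at least 2 the counts were 353 higher (3.24%) and 81 lower (0.744%). The adjusted p is that of limma with the Benjamini-Hochberg method over all tested probe sets. In RNA of a whole culture, fewer cells of a kind and less RNA per cell cannot be told apart. The vehicle arrays correlated with each other at 0.987 and the interleukin arrays at 0.981, against 0.9535 to 0.9551 between the groups. The signal ratio of the 3′ to the 5′ end of a control transcript rises when RNA is degraded or labelling is short. For transferrin receptor it was 1.85 and 2.14 with vehicle, 3.05 and 3.95 with interleukin and 3.54 and 2.3 with hydrogen peroxide, and for pyruvate carboxylase 1.66 and 1.59, 2.3 and 2.46, and 2.89 and 2.03. The beta-actin ratio was 1.22 and 1.26 against 1.46 and 1.55 with interleukin, and that of Gapdh lay between 0.825 and 0.873 on all 6 arrays. The first 3 ratios were higher on both interleukin arrays than on either vehicle array, and their part in the changes was not tested. Leaving out an array lowered the gene counts, to 522 higher and 266 lower without vehicle array 1, to 569 and 244 without vehicle array 2, and to 699 and 454 without interleukin array 1.

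The genes were grouped into 24 lists in 5 classes: transcription factors, receptors, secreted proteins, membrane transport and signal regulators. Secreted proteins rose most often, with 105 of 300 tested genes higher (35.0%) and 27 lower (9.0%). Signal regulators followed, with 26 of 108 higher (24.1%) and 8 lower (7.41%), then receptors, with 42 of 212 higher (19.8%) and 18 lower (8.49%). Transcription factors had 55 of 400 higher (13.8%) and 41 lower (10.2%), and membrane transport 34 of 270 higher (12.6%) and 13 lower (4.81%). In the share called higher these classes lay nearest to that over all genes, 9.78%. In the share called lower transcription factors lay farthest from that over all genes, 6.61%, and signal regulators lay nearest. The median log2 change was 0.32 for secreted proteins, 0.21 for signal regulators, 0.20 for receptors, 0.14 for membrane transport and 0.07 for transcription factors, against 0.03 over all tested genes. Without vehicle array 2 the secreted proteins called lower numbered 17. Genes with every vehicle and hydrogen peroxide array below 193.7 passed the filter only through the interleukin arrays: there were 15 among all tested genes, 4 among the secreted proteins and 1 each among transcription factors, receptors and membrane transport. Without them the shares called higher were 34.5% of secreted proteins and 9.75% of all genes. The count leaves out genes such as Il6 and Ch25h, with vehicle arrays below 193.7 and a hydrogen peroxide array above it (249.0 and 237.9). Such genes can also pass through their interleukin arrays, so these shares do not remove all of that selection.

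**Figure D1:**
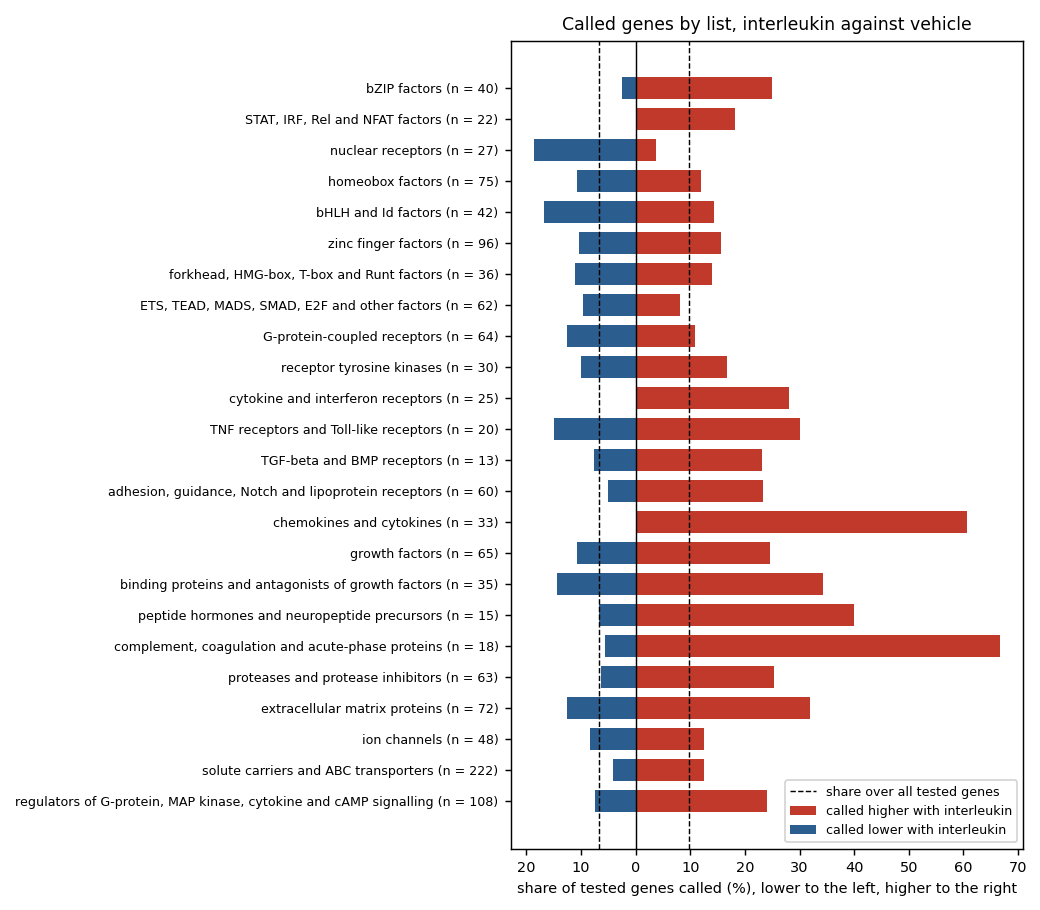
Share of the tested genes of each list, in percent, that were called higher (bars to the right) or lower (bars to the left) with interleukin at an adjusted p under 0.05; n is the number of tested genes, and the dashed lines mark the shares over all 10892 tested genes, 9.78% higher and 6.61% lower. The longest bars to the right belong to complement, coagulation and acute-phase proteins (66.7%) and to chemokines and cytokines (60.6%), and the longest to the left to nuclear receptors (18.5%). Genes that passed the filter only through their interleukin arrays are included.

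Among the transcription factors the bZIP family, which holds the C/EBP and AP-1 proteins, had 10 of 40 tested members higher and 1 lower. Cebpd, which encodes the C/EBP protein of the acute phase, read 2998 and 2897 on the vehicle arrays and 28304.5 and 24862 on the interleukin arrays. It rose 9.002-fold (log2 change 3.17 ± 0.11, limma's standard error, n = 2 arrays per group here and throughout; adjusted p = 1.55e-07). Its relative Cebpb read 35118 and 33511 with vehicle and 44436 and 38579 with interleukin, a log2 change of 0.27 ± 0.09 that did not pass (adjusted p = 0.0615), although its dimmer probe set was called higher, by 0.65. Each interleukin array lay above each vehicle array for both genes. Nfil3, a repressor tied to the circadian clock and to cytokine signals, read 1673 and 1723 with vehicle and 5047 and 7291 with interleukin (3.57-fold, adjusted p = 0.000259). The count of bZIP members called higher was 6 without vehicle array 1 and 6 without interleukin array 1, and the call of the 1 fall, Crem, ended without vehicle array 1 (log2 change -0.55) and without interleukin array 1 (-0.63), as it did without the trend of variance on signal.

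Junb, an AP-1 subunit, read 6219.5 and 7293 with vehicle against 18661 and 20844 with interleukin and rose 2.93-fold (log2 change 1.55 ± 0.11, adjusted p = 1.04e-05). Creb5, a bZIP protein of the ATF2 group, read 527.9 and 699.0 with vehicle against 2387 and 1679.6 with interleukin and rose 3.296-fold (log2 change 1.72 ± 0.21, adjusted p = 0.000453). The largest rises and falls of each list were chosen among called genes whose groups did not overlap, so a lack of overlap in them is no finding. Junb was among the genes named after their values had been seen; the others so chosen are said to be so below.

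Of the STAT, IRF, Rel and NFAT factors 4 of 22 tested members were higher and 0 lower (1 lower at an unadjusted p under 0.05 in limma), and the count higher was 4 again whichever array was left out. Irf7 and Irf9, which drive interferon-stimulated genes, read 1918.5 and 2222.5 (Irf7) and 1623 and 1518 (Irf9) with vehicle against 9651 and 8853 (Irf7) and 6171 and 4527 (Irf9) with interleukin. Irf7 rose 4.48-fold (log2 change 2.16 ± 0.15, adjusted p = 1e-05) and Irf9 3.37-fold (log2 change 1.75 ± 0.15, adjusted p = 4.62e-05). Relb, a subunit of the alternative NF-kappaB pathway, read 901.0 and 833.6 with vehicle and 2198 and 2015 with interleukin (2.43-fold, adjusted p = 0.000601). For these 3 genes the arrays of the groups stood clear of each other. Stat3, which carries the signal of the interleukin-6 family, read 12096 and 13934 with vehicle and 15146 and 17522.5 with interleukin, a log2 change of 0.33 ± 0.11 (95% interval 0.08 to 0.57) that did not pass (adjusted p = 0.0697).

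Nuclear receptors, the factors that respond to steroid, thyroid and vitamin ligands, had 1 of 27 tested members higher and 5 lower. Nr3c1, the glucocorticoid receptor, read 9595 and 9752 with vehicle against 4924 and 5934 with interleukin and fell by 0.84 on the log2 scale (standard error 0.11, adjusted p = 0.00073). Its 4 other tested probe sets changed by -3.02 to -0.36 on the log2 scale, all downward. Vdr, the vitamin D receptor, which is known to repress renin, read 8408 and 7657 with vehicle and 3966 and 4919 with interleukin (log2 change -0.86 ± 0.12, adjusted p = 0.00112). Nr4a2, an orphan receptor induced by cyclic AMP, read 1426 and 1364 with vehicle and 779.1 and 616.0 with interleukin (log2 change -1.01 ± 0.18, adjusted p = 0.00402), while its 3 other probe sets ran from -0.53 to 0.11. In all 3 genes both interleukin arrays lay below both vehicle arrays. The nuclear receptors had 0 higher and 3 lower without vehicle array 2, and 0 and 4 without vehicle array 1 or interleukin array 1.

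Homeobox factors, which set position and cell identity in the embryo, moved in both directions, with 9 of 75 tested members higher and 8 lower. Prrx1, a factor of limb and other mesenchyme, read 7587 and 8194 with vehicle against 18235 and 15693 with interleukin and rose 2.15-fold (log2 change 1.10 ± 0.10, adjusted p = 8.34e-05), and its 4 other probe sets also changed upward, by 0.37 to 1.27. Msx2, a target of BMP signals, read 5986 and 5551 with vehicle against 2836 and 2669 with interleukin and fell by 1.07 on the log2 scale (standard error 0.11, adjusted p = 0.000129). These 2 genes kept their calls under every alternative tried. The counts of the list moved with the arrays used, to 1 higher and 4 lower without vehicle array 1, 4 and 5 without vehicle array 2, and 4 and 5 without interleukin array 1; without interleukin array 2 the count higher was 6.

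The basic helix-loop-helix and Id factors had 6 of 42 tested members higher and 7 lower. Atoh8, a member of the atonal family, read 5930.2 and 6517 with vehicle and 2874 and 3883 with interleukin (log2 change -0.90 ± 0.15, adjusted p = 0.00299), and both interleukin arrays were lower than both vehicle arrays. Ahr, the receptor for dioxin and related ligands, read 5146 and 5095 with vehicle and 8878 and 7457 with interleukin (1.59-fold, adjusted p = 0.00281). A dimmer probe set of Ahr changed the other way, by -0.59, so the direction of this gene depends on the probe set. The counts were 2 and 3 without vehicle array 1, 4 and 2 without vehicle array 2, 3 and 3 without interleukin array 1, and 3 and 6 without interleukin array 2.

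The zinc finger factors had 15 of 96 tested members higher and 10 lower. Hivep2 and Hivep3 encode large proteins that bind NF-kappaB-like motifs. Hivep2 read 694.9 and 722.4 with vehicle and 1814 and 1423 with interleukin (2.27-fold, log2 change 1.18 ± 0.19, adjusted p = 0.00234). Hivep3 read 283.0 and 518.3 with vehicle and 1301 and 1038 with interleukin (3.04-fold, log2 change 1.60 ± 0.30, adjusted p = 0.00498). The vehicle arrays of Hivep3 differed more than those of Hivep2, and in neither did the groups overlap. Glis3, a factor needed for kidney and pancreas, read 979.4 and 1387 with vehicle and 3565.5 and 3372 with interleukin (2.97-fold, adjusted p = 0.000259).

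In the other direction Plagl1, an imprinted growth regulator, read 6567 and 6990.4 with vehicle and 3356 and 3318 with interleukin (log2 change -1.02 ± 0.12, adjusted p = 0.000378), and its interleukin arrays were nearly level. Klf4, a regulator of the smooth muscle phenotype that was named after its values had been seen, read 13259 and 12118 with vehicle and 6511 and 6565 with interleukin (log2 change -0.96 ± 0.09, adjusted p = 8.88e-05). Gata3, Gata4 and Gata6, of a family that acts in kidney and vessel development, were all called lower, with log2 changes of -1.08 ± 0.20, -0.67 ± 0.13 and -0.67 ± 0.12; the last pair were named after their values had been seen. The call of Gata3 ended without vehicle array 1 (log2 change -1.05) and those of Gata4 and Gata6 without vehicle array 2 (-0.62 and -0.64). The counts of the list were 4 higher and 7 lower without vehicle array 1, 6 and 4 without vehicle array 2, 7 and 9 without interleukin array 1, and 8 and 10 without interleukin array 2.

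Of the forkhead, HMG-box, T-box and Runt factors 5 of 36 were higher and 4 lower. Runx1, known from blood and bone, read 495.8 and 342.3 with vehicle against 1829 and 1559 with interleukin and rose 4.098-fold (log2 change 2.04 ± 0.21, adjusted p = 0.000156). Foxp1, a forkhead repressor, read 3457 and 3772 with vehicle against 7665 and 6367 with interleukin and rose 1.93-fold (log2 change 0.95 ± 0.12, adjusted p = 0.000668), and its 6 other tested probe sets changed upward by 0.33 to 1.13. Both genes had every interleukin array above every vehicle array. The remaining list, of ETS, TEAD, MADS, SMAD, E2F and other factors, had 5 of 62 higher and 6 lower, shares of 8.06% and 9.68% against 9.78% and 6.61% over all genes. Mybl2, a factor of the dividing cell, was the largest fall there, from 1948 and 2234.5 with vehicle to 1112 and 1114 with interleukin (log2 change -0.91 ± 0.15, adjusted p = 0.00278).

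The counts of these last lists moved too. Without vehicle array 1 the forkhead list had 2 higher and 1 lower and the ETS list 0 and 1, without vehicle array 2 the counts were 2 and 1 and 3 and 1, and without interleukin array 1 the ETS list had 3 and 2. For the transcription factors as a class, 19 were higher and 20 lower without vehicle array 1, 30 and 17 without vehicle array 2, and 31 and 29 without interleukin array 1, against 55 and 41 with all arrays.

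**Figure D2:**
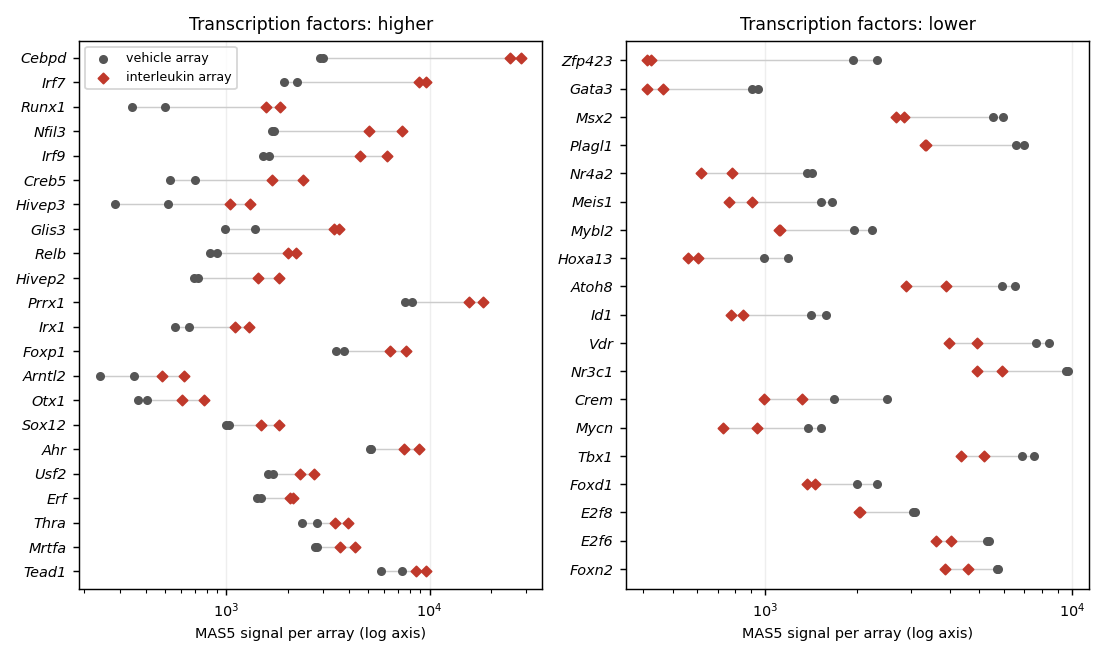
MAS5 signal on each vehicle array (grey circles) and each interleukin array (red diamonds), on a log axis, for the transcription factor genes with the largest rises (left) and falls (right) of each list, with a thin line over the range of the 4 arrays. Genes were drawn only where the arrays of the groups do not overlap; Cebpd spans 2897 to 28304.5.

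Among the receptors the shares called higher were greatest for TNF and Toll-like receptors, with 6 of 20, then 28.0% for cytokine and interferon receptors, 23.3% for adhesion and guidance receptors, 23.1% for TGF-beta and BMP receptors, 16.7% for receptor tyrosine kinases and 10.9% for G-protein-coupled receptors. Of the cytokine and interferon receptors 7 of 25 tested members were higher and 0 lower (1 lower at an unadjusted p under 0.05 in limma), with 6 to 8 higher when an array was left out. Il13ra1, a subunit of the receptors for interleukins 4 and 13, read 663.5 and 547.3 with vehicle against 3843 and 3684 with interleukin and rose 6.24-fold (log2 change 2.64 ± 0.19, adjusted p = 1.2e-05). Its 3 other probe sets rose by 2.36 to 3.10. Il4ra, the partner chain of Il13ra1, read 5709 and 5899 with vehicle and 10267.5 and 15132.5 with interleukin (2.15-fold, log2 change 1.10 ± 0.16, adjusted p = 0.00117), so that both chains of that receptor were higher. Ifnar2, a chain of the type I interferon receptor, read 4640.5 and 5347 with vehicle and 10674.5 and 8904.5 with interleukin (1.96-fold, adjusted p = 0.000781).

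Osmr, the receptor chain for oncostatin M, and Il17ra, the common chain for interleukin 17, were named after their values had been seen. Osmr read 6812 and 7769 with vehicle and 14092 and 13936 with interleukin (1.93-fold, adjusted p = 0.00019), and Il17ra read 4851 and 4474 against 7592 and 7685 (1.64-fold, adjusted p = 0.00158). Il6st, the signalling chain that interleukin 6, Lif and oncostatin M share, read 11556 and 11809 with vehicle and 12888 and 13996 with interleukin, a log2 change of 0.20 ± 0.09 that did not pass (adjusted p = 0.157), with 3 other probe sets between -0.66 and 0.01. The groups stood apart in all 3, with the smallest gap in Il6st.

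Of the TNF receptors and Toll-like receptors 6 of 20 tested members were higher and 3 lower. Fas, a death receptor, read 897.7 and 618.9 with vehicle against 3526 and 4121.5 with interleukin and rose 5.11-fold (log2 change 2.35 ± 0.21, adjusted p = 5.93e-05). Tlr2, which senses bacterial lipoproteins, read 366.8 and 291.6 with vehicle against 1363 and 945.8 with interleukin and rose 3.47-fold (log2 change 1.80 ± 0.25, adjusted p = 0.000943). Neither gene had a vehicle array as high as its lower interleukin array. Tnfrsf1b, the inducible TNF receptor, read 593.0 and 590.8 with vehicle and 1565 and 1738 with interleukin (2.79-fold, adjusted p = 0.00044), whereas the constitutive TNF receptor Tnfrsf1a read 9729.6 and 11063.5 against 10217.5 and 12116, overlapped between the groups and did not pass (log2 change 0.10 ± 0.11, adjusted p = 0.582).

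Nod1, an intracellular sensor of bacterial cell wall that was named after its values had been seen, read 1139.9 and 1075 with vehicle and 2954 and 2512 with interleukin (2.46-fold, adjusted p = 0.000292). Ngfr, the low-affinity neurotrophin receptor, fell, from 10106 and 9249 with vehicle to 3512 and 5599.7 with interleukin (log2 change -1.12 ± 0.21, adjusted p = 0.00459). Its interleukin arrays differed from each other more than its vehicle arrays did, and the call ended without the trend of variance on signal. The number of TNF and Toll-like receptors called lower was 1 without vehicle array 2 and 2 without vehicle array 1, interleukin array 1 or either hydrogen peroxide array.

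Receptor tyrosine kinases, which bind growth factors, had 5 of 30 tested members higher and 3 lower. Egfr, the receptor for epidermal growth factor, read 1935 and 2667 with vehicle against 6330.4 and 4403 with interleukin and rose 2.32-fold (log2 change 1.22 ± 0.19, adjusted p = 0.0021). Pdgfrb, which marks pericytes and renin-producing cells, read 10045 and 9735 with vehicle and 15398.5 and 13740.4 with interleukin (1.47-fold, adjusted p = 0.00327). Fgfr2, a receptor for fibroblast growth factors, fell, from 5719.5 and 6355 with vehicle to 2729.5 and 2079 with interleukin (log2 change -1.34 ± 0.16, adjusted p = 0.000441), and its other probe set fell by 1.02 on the log2 scale. The call of Pdgfrb ended without the trend of variance on signal. Without vehicle array 1 the list had 3 higher and 2 lower, without vehicle array 2 3 and 1, without interleukin array 1 4 and 1, and without interleukin array 2 6 and 2.

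Of the G-protein-coupled receptors 7 of 64 tested members were higher (10.9%) and 8 lower (12.5%). Gpr176, an orphan receptor of the circadian clock, read 238.1 and 104.7 with vehicle against 1356.5 and 1172 with interleukin and rose 7.99-fold (log2 change 2.997 ± 0.36, adjusted p = 0.0004). The vehicle arrays of Gpr176 differed by more than the interleukin arrays, and its fold was 12.04 without vehicle array 1 and 5.296 without vehicle array 2. Cmklr1, the receptor for chemerin, read 5059 and 4587 with vehicle and 2267 and 2987 with interleukin (log2 change -0.89 ± 0.15, adjusted p = 0.00265). Lpar3, a receptor for lysophosphatidic acid, read 2857 and 2665 with vehicle and 1525 and 1594 with interleukin (log2 change -0.82 ± 0.14, adjusted p = 0.00362), and its relative Lpar1 read 13386 and 15171 against 16354 and 19968 and did not pass (log2 change 0.34 ± 0.11, adjusted p = 0.0567). The counts were 4 and 4 without vehicle array 1, 3 and 4 without vehicle array 2, 5 and 4 without interleukin array 1, and 4 and 9 without interleukin array 2.

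The TGF-beta and BMP receptors had 3 of 13 tested members higher and 1 lower, and without either vehicle array, interleukin array 1 or hydrogen peroxide array 2 these became 2 and 0. Acvr1b, the activin type I receptor, read 1579 and 1757 with vehicle against 3969.8 and 3947 with interleukin and rose 2.38-fold (log2 change 1.25 ± 0.13, adjusted p = 0.000129). Adhesion, guidance, Notch and lipoprotein receptors had 14 of 60 higher and 3 lower. Vcam1, the adhesion molecule that binds leukocyte integrin, read 2256 and 2217 with vehicle and 6083 and 3528 with interleukin (2.07-fold, adjusted p = 0.00681), with a wide gap between its interleukin arrays. Itga8, an integrin chain needed for kidney formation, read 1994 and 1878 with vehicle against 797.1 and 608.0 with interleukin and fell by 1.47 on the log2 scale (standard error 0.18, adjusted p = 0.000391), and Itga6, a laminin-binding chain, read 3192 and 3212 against 1981 and 1883.5 (log2 change -0.73 ± 0.13, adjusted p = 0.00446).

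The number of adhesion and guidance receptors called higher was 3 without vehicle array 1, 5 without vehicle array 2 and 5 without interleukin array 1, and the call of Vcam1 ended without the trend of variance on signal. For the receptors as a class, 24 were higher and 10 lower without vehicle array 1, 25 and 9 without vehicle array 2, and 30 and 11 without interleukin array 1, against 42 and 18 with all arrays.

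**Figure D3:**
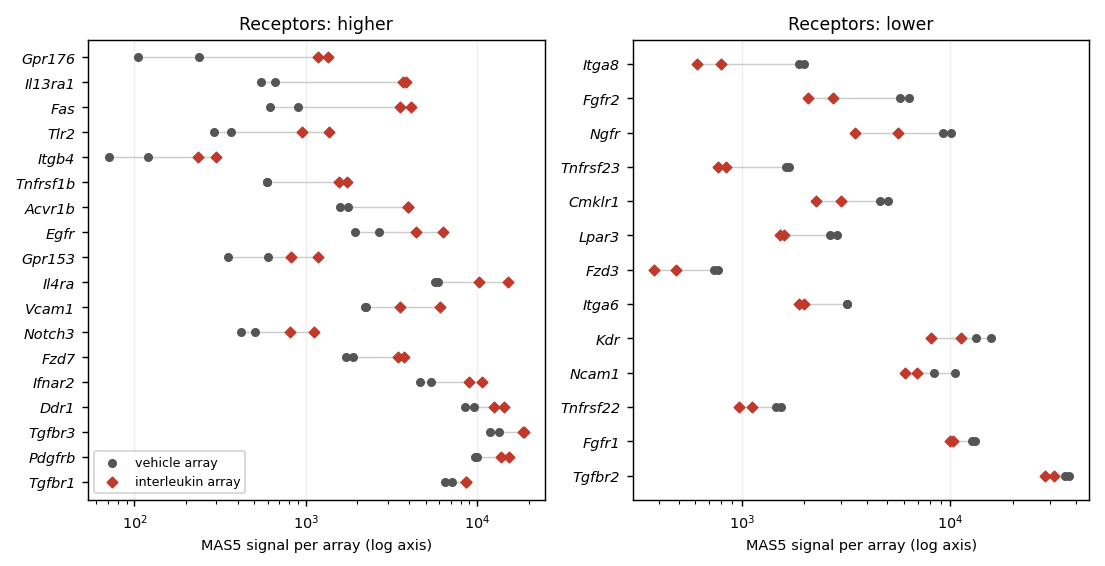
MAS5 signal on each vehicle array (grey circles) and each interleukin array (red diamonds), on a log axis, for the receptor genes with the largest rises (left) and falls (right) of each list, with a thin line over the range of the 4 arrays. Only genes whose groups do not overlap were drawn; the gap between the groups is wide for Il13ra1 and Fas.

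Secreted proteins held the largest shares of calls. Of the chemokines and cytokines 20 of 33 tested members were higher and 0 lower (also 0 at an unadjusted p under 0.05 in limma; median log2 change 0.91), and of the complement, coagulation and acute-phase proteins 12 of 18 were higher and 1 lower (median 1.32). In each list 1 gene passed the filter only through its interleukin arrays, and without it 19 of 32 (59.4%) and 11 of 17 (64.7%) were higher. Il6, Lcn2 and Cfb, with vehicle arrays below 193.7, can also have passed through their interleukin arrays. These shares and medians are therefore not free of that selection. With an array left out the first list had 16 to 20 higher and the second 11 to 12, and the single fall ended without either vehicle or either interleukin array. Ccl2, the main attractant of monocytes and named after its values had been seen, read 5264 and 4784 with vehicle against 42611 and 39859 with interleukin and rose 8.21-fold (log2 change 3.04 ± 0.10, adjusted p = 1.31e-07). Lif, a cytokine of the interleukin-6 family, read 415.2 and 277.5 with vehicle and 4757 and 3137 with interleukin (11.4-fold, adjusted p = 1.08e-05), and Il33, an alarm signal of stromal cells, read 231.6 and 212.0 against 3012 and 2540.3 (12.5-fold, adjusted p = 2.64e-06). In all 3 the lower interleukin array was several times the higher vehicle array. Csf1, the macrophage growth factor, was the brightest member that did not pass, at 5216 and 5435 with vehicle against 5568 and 6188 with interleukin (log2 change 0.14 ± 0.11, adjusted p = 0.421).

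Ptx3, a pentraxin that binds microbes, read 782.0 and 858.4 with vehicle against 19488 and 13175 with interleukin and rose 19.6-fold (log2 change 4.29 ± 0.18, adjusted p = 3.21e-07). Lbp, which hands bacterial endotoxin to Cd14, read 123.6 and 165.0 with vehicle and 2434 and 2621 with interleukin (17.7-fold, adjusted p = 0.000108 in the fit without the filter), and Cd14 itself read 2627 and 2563 against 4354 and 5415 (1.87-fold, adjusted p = 0.0013). The vehicle and hydrogen peroxide arrays of Lbp lay below the level of 193.7, so it passed the filter only through its interleukin arrays. Clu, an abundant chaperone counted with the complement proteins, read 2058 and 1844 with vehicle against 2527.5 and 2062 with interleukin and did not pass (log2 change 0.23 ± 0.16, adjusted p = 0.389).

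Growth factors had 16 of 65 tested members higher and 7 lower. Angptl7, an angiopoietin-like protein of the matrix, read 528.4 and 479.9 with vehicle against 4881 and 3323 with interleukin and rose 7.997-fold (log2 change 2.999 ± 0.23, adjusted p = 1.79e-05). Bmp2, a bone morphogenetic protein, read 749.9 and 560.2 with vehicle and 2416 and 1908 with interleukin (3.31-fold, adjusted p = 0.000324). The groups were apart in both. Inhbb, the beta B subunit of activin and inhibin, read 44659 and 46337 with vehicle against 16463 and 22194.5 with interleukin and fell by 1.25 on the log2 scale (standard error 0.12, adjusted p = 7.62e-05), and Wnt5b, a Wnt ligand, read 982.5 and 890.2 against 378.7 and 274.4 (log2 change -1.54 ± 0.26, adjusted p = 0.00277). Igf1 and Tgfb3, both named after their values had been seen, had log2 changes of -0.99 ± 0.14 and -0.92 ± 0.13 (adjusted p = 0.00121 and 0.00114).

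Binding proteins and antagonists of growth factors had 12 of 35 tested members higher and 5 lower, with 2 lower without vehicle array 1, vehicle array 2 or interleukin array 1. Fst, which traps activin, read 698.5 and 618.1 with vehicle against 3124 and 2465 with interleukin and rose 4.22-fold (log2 change 2.08 ± 0.21, adjusted p = 0.000129), so that an activin antagonist and an activin receptor chain were higher while an activin subunit was lower. Ccn2, connective tissue growth factor, read 1494.5 and 1283 with vehicle and 9765 and 9032 with interleukin (6.78-fold, adjusted p = 8.82e-07), and Ltbp2, a matrix protein of the latent TGF-beta binding family, read 199.6 and 167.9 against 1778 and 1202 (7.99-fold, adjusted p = 3.2e-05). Nog, which traps BMPs, read 7226 and 7608 with vehicle against 2358.5 and 3085 with interleukin and fell by 1.46 on the log2 scale (standard error 0.14, adjusted p = 6.99e-05). Bmp2 and Nog, the ligand and its antagonist, thus changed in opposite directions, both with groups that did not overlap. Of the peptide hormones and neuropeptide precursors 6 of 15 were higher and 1 lower, with 3 higher without vehicle array 1 and 2 lower without interleukin array 2. Adm, which encodes the vasodilator adrenomedullin, read 771.4 and 775.5 with vehicle and 5708 and 5495 with interleukin (7.24-fold, adjusted p = 1.28e-06), and Apln, which encodes apelin, read 729.0 and 585.6 against 2066 and 2293 (3.33-fold, adjusted p = 0.000132).

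Proteases and protease inhibitors had 16 of 63 tested members higher and 4 lower. Slpi, an inhibitor of neutrophil elastase, read 1711 and 1908 with vehicle against 19584 and 23297 with interleukin and rose 11.8-fold (log2 change 3.56 ± 0.15, adjusted p = 3.61e-07). Serping1, the inhibitor of the first complement component, read 451.2 and 423.3 with vehicle and 2569.8 and 2468 with interleukin (5.76-fold, adjusted p = 1.15e-05), and Timp2, an inhibitor of matrix metalloproteinases, fell from 44887 and 44248 to 26220.0 and 26893 (log2 change -0.75 ± 0.07, adjusted p = 6.57e-05). The arrays of the groups were clear of each other in all 3. The number called higher was 10 without either vehicle array.

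The extracellular matrix proteins had 23 of 72 tested members higher and 9 lower, with 13 higher without vehicle array 1 and 6 lower without vehicle array 2. Tnc, tenascin C of healing tissue, read 336.5 and 287.3 with vehicle against 3891 and 2592 with interleukin and rose 10.2-fold (log2 change 3.35 ± 0.22, adjusted p = 6.69e-06). Dcn, the collagen-binding proteoglycan decorin, and Lama4, a laminin chain of vessels, were named after their values had been seen and rose 4.02-fold and 2.58-fold (adjusted p = 4.31e-06 and 5.93e-05). Lama1, a laminin chain of epithelial basement membranes, read 1652 and 2291 with vehicle against 863.1 and 681.3 with interleukin and fell by 1.34 on the log2 scale (standard error 0.20, adjusted p = 0.00146). The laminin chains Lama4 and Lama1 thus moved in opposite directions. Of the collagen VI genes, also named after their values had been seen, Col6a3 read 23699 and 30112 with vehicle and 13699 and 14283 with interleukin (log2 change -0.93 ± 0.11, adjusted p = 0.000324). Col6a1 and Col6a2 fell by 0.31 and 0.28 on the log2 scale, and their calls ended without vehicle array 2 (log2 changes -0.19 and -0.21) and without either interleukin array; that of Col6a1 also ended without either hydrogen peroxide array and that of Col6a2 without vehicle array 1.

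Genes below the level with vehicle and above it with interleukin were sought among all 18193 genes on the array, since the limit on mean signal would leave many of them out. A gene was counted as gained when both interleukin arrays were at or above the level of 193.7, both vehicle arrays below it, the fold at least 2 and the adjusted p of a fit over all 45037 probe sets under 0.05. There were 57 gained genes (0.313%), 33 of them outside the fit of the brighter probe sets, and 18 were listed secreted proteins, 1 a receptor and 0 transcription factors. Of the 18193 genes on the array 672 were listed secreted proteins, 529 receptors and 620 transcription factors. The counts of 1 and 0 are therefore too small to be read as a result about receptors and transcription factors. At an unadjusted p under 0.05 the count was 145. On the hydrogen peroxide arrays, which the rule did not use, 13 of the 57 were at or above the level on both arrays and 28 below it on both. The rule asked for vehicle arrays below the level, so a gene that hydrogen peroxide left unchanged would lie below it too. No share over all genes was counted for this. Hp, which encodes haptoglobin, the acute-phase protein that binds free haemoglobin, read 11.6 and 8.1 with vehicle and 4890.3 and 8484 with interleukin. Its fitted change was 664-fold (log2 change 9.38 ± 0.67, adjusted p = 4.31e-05), with vehicle signals so low that the fold depends on how low values are treated, and adding 32 to every signal gave a log2 change of 7.27. Both interleukin arrays of Hp lay far above both vehicle arrays.

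Csf3, the granulocyte colony-stimulating factor, read 26.0 and 29.4 with vehicle and 2629 and 3055 with interleukin (log2 change 6.68 ± 0.44, adjusted p = 2.87e-05), or 5.59 with 32 added. Serpina3n, a secreted protease inhibitor of the acute phase, read 15.9 and 19.4 with vehicle and 1995.5 and 2111 with interleukin (log2 change 6.87 ± 0.57, adjusted p = 0.000101), or 5.39 with 32 added. In these genes each vehicle array lay under the level by a wide margin. Camp, the precursor of an antimicrobial peptide, read 36.9 and 16.9 with vehicle and 792.5 and 1112 with interleukin (log2 change 5.23 ± 0.68, adjusted p = 0.0017), or 4.06 with 32 added, and its promoter window of 250 bases held none of the motifs.

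Several gained genes and others that rose act on iron and other metals. Haptoglobin returns haemoglobin iron, Cp encodes the ferroxidase ceruloplasmin, and Steap4 encodes a reductase of iron and copper. Cp read 34.5 and 28.5 with vehicle and 1123 and 1275 with interleukin (log2 change 5.25 ± 0.64, adjusted p = 0.00117), and Steap4 read 15.6 and 15.5 against 2449 and 2281 (log2 change 7.25 ± 0.85, adjusted p = 0.000927); with 32 added the log2 changes were 4.28 and 5.65. Mt2, a metallothionein that binds zinc and copper, read 954.8 and 971.3 with vehicle against 13101 and 16153 with interleukin and rose 15.1-fold (adjusted p = 1.55e-07). Among the carriers Slc39a14 and Slc39a8, which import zinc, manganese and iron, and Slc11a2, which imports ferrous iron, read 1895.5 and 2042, 980.8 and 897.0 and 2394 and 2582 with vehicle against 7521 and 8825.5, 1888 and 2080.2 and 5152.5 and 5192 with interleukin. They rose 4.14-fold, 2.11-fold and 2.08-fold (adjusted p = 3.71e-06, 0.00104 and 0.000362). This group was put together after the values had been seen, and no list of metal genes was counted. In each gene the groups did not overlap, which is no finding in genes so chosen.

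The serum amyloid gene Saa4 read 62.9 and 42.0 with vehicle and 1227 and 1464 with interleukin (log2 change 4.70 ± 0.56, adjusted p = 0.00096), or 4.03 with 32 added. Saa genes are close copies, so a probe set of one may take up signal of another. Of the 57 gained genes 35 had a promoter in the table, and of these 7 held the NF-kappaB motif, 4 the interferon motif (11.4%), 11 the C/EBP motif (31.4%) and 6 the AP-1 motif (17.1%). For NF-kappaB, interferon, C/EBP and AP-1 motifs in turn, over the 8868 tested genes with a promoter the shares were 1.74%, 3.02%, 8.6% and 5.18%, and over the 266 with a promoter among the 353 genes called at least 2-fold higher they were 3.76%, 9.02%, 14.3% and 12.8%. Over the 61 among the 81 genes called at least 2-fold lower they were 1.64%, 3.28%, 9.84% and 4.92%. Without interleukin array 1 the gained genes numbered 28 and without interleukin array 2 29, and without the trend of variance on signal 4 (132 at an unadjusted p under 0.05), Hp, Csf3, Serpina3n and Cp.

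**Figure D4:**
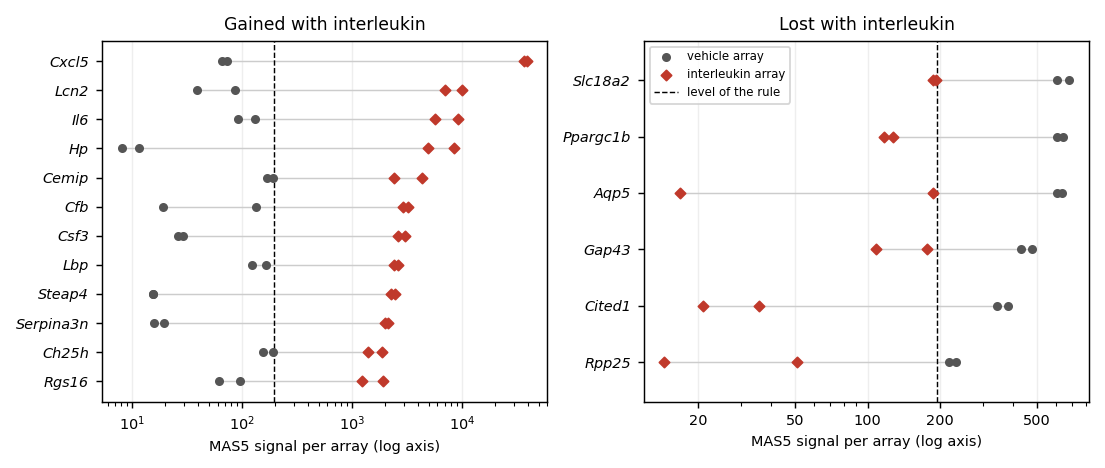
MAS5 signal on each vehicle array (grey circles) and each interleukin array (red diamonds), on log axes, for the 12 gained genes of highest interleukin signal (left) and for the 6 lost genes (right), with a dashed line at the level of 193.7 that the rule used. The vehicle signals of Hp, at 11.6 and 8.1, are the lowest of the left panel.

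Beyond the secreted proteins, the rises ranked 11 to 30 included interferon-stimulated genes. Oas2, an antiviral RNA sensor, read 333.0 and 337.6 with vehicle and 4761 and 3658 with interleukin (12.4-fold, adjusted p = 8.82e-07). Zbp1, a sensor of left-handed nucleic acids, read 649.9 and 610.1 with vehicle and 7009 and 5598 with interleukin (9.95-fold, adjusted p = 6.32e-07). Ifit3, an antiviral protein, read 1286 and 1208 with vehicle and 15875 and 8016 with interleukin (9.05-fold, adjusted p = 1.84e-05), its interleukin arrays differing by more than those of Oas2 and Zbp1. In these genes every interleukin array exceeded every vehicle array, which their choice required. Ptgs2, the inducible prostaglandin synthase, read 1465 and 1292 with vehicle and 14145 and 10341 with interleukin (8.79-fold, adjusted p = 8.82e-07). Ch25h, which makes 25-hydroxycholesterol, read 154.1 and 193.0 against 1868 and 1392 (9.35-fold, adjusted p = 0.000685 in the fit without the filter). Rasl11a, a small GTPase of the Ras family, read 259.5 and 259.2 with vehicle and 2599 and 2270.4 with interleukin (9.37-fold, adjusted p = 4.76e-06).

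Among the signal regulators, 4 of 8 tested genes of the I-kappaB family and of Tnfaip3 with its partners, which restrain NF-kappaB or act with it in the nucleus, were called higher, and 2 of 8 of the SOCS family, which restrains cytokine receptors. Over the whole class of signal regulators the share called higher was 24.1%, close to that of the SOCS family, and over all tested genes it was 9.78%. Both families were counted after their values had been seen, and each holds only 8 tested genes. Nfkbib, Nfkbie and Cish, with log2 changes of 0.26, 0.21 and 0.50, were among those that did not pass (adjusted p = 0.402, 0.432 and 0.278). Nfkbiz, a nuclear member of the I-kappaB family, read 4527 and 4245 with vehicle against 32295.5 and 25729.9 with interleukin and rose 6.58-fold (log2 change 2.72 ± 0.12, adjusted p = 3.61e-07), while its 2 other probe sets ran from -0.20 to 2.83. The following were named after their values had been seen. Socs3, the inhibitor of STAT3 signals, read 3286 and 3345 with vehicle and 10389 and 11243 with interleukin (3.26-fold, adjusted p = 4.25e-06), and Tnfaip3, an inhibitor of NF-kappaB, read 726.8 and 947.7 against 3893 and 2573 (3.81-fold, adjusted p = 0.0002). Nfkbia, Bcl3 and Irak3 rose 2.13-fold, 2.48-fold and 1.896-fold (adjusted p = 3.54e-05, 9.6e-05 and 0.00128). In all of these the groups did not overlap, which is no finding in genes so chosen. The class of signal regulators had 15 higher and 4 lower without vehicle array 1, 17 and 4 without vehicle array 2, and 17 and 6 without interleukin array 1.

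Of 16 tested phosphodiesterases, which break down cyclic nucleotides, 2 were called higher (12.5%) and 5 lower (31.2%), against 9.78% and 6.61% over all genes, and 9 did not pass. The family was counted after its values had been seen. Among the falls, the calls of Pde3a and Pde7b ended without vehicle array 2 (log2 changes -1.21 and -0.54), that of Pde3a also without vehicle array 1 or interleukin array 2 and that of Pde7b without interleukin array 1. Pde3b, which degrades cyclic AMP and is inhibited by cyclic GMP, read 12777 and 13588 with vehicle against 6132 and 7023 with interleukin and fell by 1.01 on the log2 scale (standard error 0.10, adjusted p = 0.000148). Pde4d, which is selective for cyclic AMP, read 12903 and 13249.5 with vehicle and 6421.5 and 6707 with interleukin (log2 change -0.99 ± 0.09, adjusted p = 6.05e-05), and Pde8b, also selective for cyclic AMP, read 1603 and 1589.7 against 726.2 and 949.1 (log2 change -0.94 ± 0.18, adjusted p = 0.00492). Pde5a, which is selective for cyclic GMP, read 390.0 and 256.3 with vehicle against 1039.6 and 919.0 with interleukin and rose 3.09-fold (adjusted p = 0.00198). Pde5a and Pde8b were named after their values had been seen. The groups did not overlap in any of these genes, which is no finding given how they were chosen.

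Membrane transport had calls near the background. The ion channels had 6 of 48 tested members higher and 4 lower, and the solute carriers and ABC transporters 28 of 222 higher and 9 lower. P2rx4, a channel opened by ATP, read 1835 and 2151 with vehicle and 5814 and 4705 with interleukin (2.63-fold, adjusted p = 0.000122). Slc7a2, an importer of arginine, read 74.9 and 102.6 with vehicle and 732.8 and 750.8 with interleukin (8.46-fold, adjusted p = 0.00147 in the fit without the filter, which this gene passed only through its interleukin arrays). Kcne4, a subunit that modulates potassium channels, fell, from 13326 and 13751 with vehicle to 6854 and 8375 with interleukin (log2 change -0.84 ± 0.11, adjusted p = 0.000545). Gja1, the gap junction protein connexin 43, read 58647 and 55458 with vehicle against 62526 and 59463 with interleukin and did not pass (log2 change 0.10 ± 0.07, 95% interval -0.05 to 0.24, adjusted p = 0.36), while 2 of its 5 other probe sets were called higher. The class had 16 higher and 3 lower without vehicle array 1, 22 and 2 without vehicle array 2, and 22 higher without interleukin array 1. Within it the channels had 3 and 1 and 6 and 1 without vehicle arrays 1 and 2, and the carriers 13 and 2, 16 and 1, and, without interleukin array 1, 18 and 6.

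At a fold of at least 2 there were 81 falls against 353 rises, and the genes ranked 11 to 30 by fall lay between -1.79 and -1.41 on the log2 scale. Limch1, which activates non-muscle myosin, read 4192 and 4441 with vehicle and 1372 and 1136 with interleukin (log2 change -1.79 ± 0.14, adjusted p = 1.75e-05), and its 2 other probe sets fell by 2.16 and 1.72 on the log2 scale. Icosl, a costimulatory ligand for T cells, read 2444 and 2559 with vehicle and 986.4 and 617.2 with interleukin (log2 change -1.68 ± 0.21, adjusted p = 0.000448), and Ulbp1, a ligand of the killer cell receptor NKG2D, read 601.5 and 604.8 against 180.4 and 196.7 (log2 change -1.68 ± 0.27, adjusted p = 0.00229). Both ligands of lymphocyte receptors were lower on every interleukin array, as the choice of these genes required. Tle4, a corepressor of the Groucho family, read 1283.5 and 1134 with vehicle and 447.7 and 436.9 with interleukin (log2 change -1.45 ± 0.20, adjusted p = 0.00106). Hs3st3b1, which adds a sulfate to heparan sulfate, read 2089 and 2298 with vehicle and 653.4 and 1037.5 with interleukin (log2 change -1.41 ± 0.20, adjusted p = 0.0012), and Olfm2, an olfactomedin protein of smooth muscle, read 1078 and 992.2 against 318.1 and 380.5 (log2 change -1.57 ± 0.21, adjusted p = 0.000728).

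**Figure D5:**
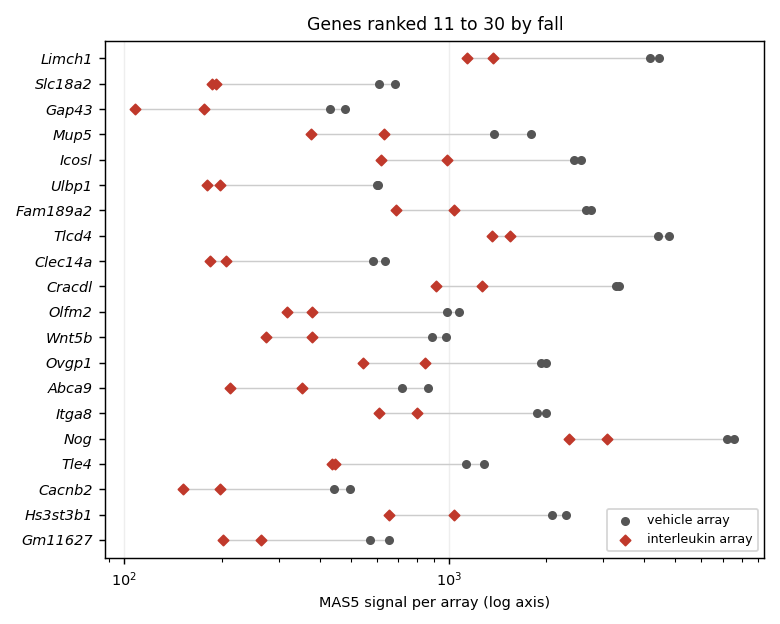
MAS5 signal on each vehicle array (grey circles) and each interleukin array (red diamonds), on a log axis, for the 20 genes ranked 11 to 30 by fall, with a thin line over the range of the 4 arrays. Every interleukin array lies below both vehicle arrays, which the choice of these genes required.

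By the reverse of the rule for gained genes, 6 genes were lost (0.033%), with mean vehicle signals of 224.65 to 645.7, and at an unadjusted p under 0.05 there were 20. Ppargc1b, a coactivator of mitochondrial genes, read 607.1 and 640.6 with vehicle and 116.9 and 127.7 with interleukin (log2 change -2.35 ± 0.40, adjusted p = 0.00716). Gap43, a growth cone protein, read 479.6 and 431.8 with vehicle and 108.1 and 176.3 with interleukin (log2 change -1.72 ± 0.33, adjusted p = 0.0124). Slc18a2, which loads monoamines into vesicles, read 681.7 and 609.7 with vehicle and 192.3 and 186.3 with interleukin (log2 change -1.77 ± 0.38, adjusted p = 0.0218), the latter just under the level of 193.7. All 4 arrays of each gene lay on the side of the level that the rule asks for.

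Cited1, a coactivator present in kidney progenitors, read 342.3 and 379.4 with vehicle and 20.9 and 35.6 with interleukin (log2 change -3.72 ± 0.79, adjusted p = 0.0217). Rpp25, a subunit of ribonuclease P, read 217.8 and 231.5 with vehicle, close to the level, and 14.4 and 51.1 with interleukin (log2 change -3.05 ± 0.71, adjusted p = 0.0339). The water channel Aqp5 read 606.3 and 639.7 with vehicle and 16.8 and 187.0 with interleukin (log2 change -3.47 ± 0.86, adjusted p = 0.0443), and its interleukin arrays differed by far more than its vehicle arrays. The calls of Aqp5 and Rpp25 ended without hydrogen peroxide array 1 or array 2 and on the 4 vehicle and interleukin arrays alone (adjusted p = 0.0752 and 0.0774, against ranges of 0.000939 to 0.346 for Aqp5 and 0.0159 to 0.216 for Rpp25 over the alternatives). The log2 change of Aqp5 became -1.74 when interleukin array 1 was left out and -5.21 when array 2 was. The call of Slc18a2 ended without interleukin array 1 or 2 (log2 changes -1.79 and -1.75), as did that of Cited1 (-3.34 and -4.11). That of Gap43 ended without interleukin array 1 (-1.37). With 32 added, the log2 changes of Cited1, Rpp25 and Aqp5 were -2.71, -2.05 and -2.66, and that of Rpp25 became -2.14 when interleukin array 1 was left out and -3.96 when interleukin array 2 was. No gene met the rule without vehicle array 1 (21 at an unadjusted p under 0.05) or without vehicle array 2 (27), where the log2 changes of the 6 genes ran from -3.80 to -1.65, and 15 did without interleukin array 2. Cited1 read 25.8 and 81.8 with hydrogen peroxide, a change against vehicle that did not pass (log2 change -2.97, adjusted p = 0.11). Of the 57 gained genes 6 were called higher with hydrogen peroxide, and the share of all genes so called was not counted.

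The hydrogen peroxide arrays show which of these changes differed between the treatments. Both comparisons share the vehicle arrays, so the values are set side by side and the direct difference between the treated groups was tested in the same fit. Of all tested genes 686 were higher with interleukin than with hydrogen peroxide (6.3%) and 442 lower (4.06%). Among the genes called higher against vehicle, those also above hydrogen peroxide were 76 of 105 secreted proteins, 26 of 42 receptors, 27 of 55 transcription factors and 488 of 1065 over all. Among the genes called lower, those also below it were 7 of 27 secreted proteins, 3 of 18 receptors, 7 of 41 transcription factors and 195 of 720 over all. These genes were called through the same interleukin arrays that enter the direct difference. That choice tilts the counts toward a difference in the direction of the call, so they are no independent measure of it.

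Cebpd read 2476 and 2195 with hydrogen peroxide, a log2 change of -0.34 against vehicle, and was 3.51 higher on the log2 scale with interleukin than with hydrogen peroxide (adjusted p = 9.18e-08). Il13ra1 read 703.3 and 521.0 with hydrogen peroxide and Msx2 5597 and 5453, log2 changes against vehicle of 0.01 and -0.06, and both differed between the treatments (adjusted p = 1.51e-05 and 0.000253). For these genes the hydrogen peroxide arrays lay near the vehicle arrays. Irf9 read 3514 and 3816 with hydrogen peroxide and rose there too, by 1.22 on the log2 scale (adjusted p = 0.00219), and the difference between the treatments did not pass (adjusted p = 0.0586). Nr4a2 and Plagl1 were also lower with hydrogen peroxide, with log2 changes of -0.88 and -0.70 against vehicle (adjusted p = 0.0204 and 0.0101), and in neither did the difference between the treatments pass (adjusted p = 0.723 and 0.139). Gap43 read 818.7 and 658.8 with hydrogen peroxide, above both vehicle arrays, though that change did not pass (log2 change 0.69, adjusted p = 0.381), and the treatments differed by -2.41 on the log2 scale (adjusted p = 0.00293).

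The markers of the labelled cell and of others were read on the same arrays. Of 17 markers of renin cells and pericytes on the array, 9 were at or above the level of 193.7 on all 4 arrays and 4 below it on all 4, among them Myh11 and Gja5, and the summed signal of the 17 was 26054 and 26923 with vehicle and 40228 and 33707 with interleukin. Of the 10 tested markers of this list Acta2, Pdgfrb, Tagln and Notch3 were called higher and Foxd1 lower (log2 change -0.60 ± 0.16, adjusted p = 0.0257), with a median log2 change of 0.003, and without interleukin array 1 the calls were 2 and 0. Without vehicle array 1 or vehicle array 2 they were 3 and 0, and without interleukin array 2 4 and 0. Abcc9, Cspg4 and Kcnj8, which mark pericytes, had log2 changes of -0.23, -0.63 and -0.24 and did not pass. Cnn1 and Mcam were on the array but not among the tested markers. Cnn1 read 203.5 and 315.7 with vehicle and 117.4 and 99.1 with interleukin (log2 change -1.233). Mcam read 204.2 and 203.8 against 130.9 and 45.8 (log2 change -1.398). Both crossed the level of 193.7 downward, but neither was counted among the lost genes. Of the other untested markers, all dimmer with vehicle, Myh11 and Gja5 changed upward and Rgs5, Des and Gja4 downward. Acta2, smooth muscle actin, read 6147 and 6113 with vehicle and 15280.4 and 9721.5 with interleukin (1.99-fold, adjusted p = 0.00305), a call that ended without the trend of variance on signal. The summed signal of 19 leukocyte markers was 4754 and 4909.5 with vehicle and 7880.5 and 9029 with interleukin, with 4 at or above the level on all 4 arrays and 9 below it. Of the 6 tested leukocyte markers Cd14 and Cd68, a lysosomal protein of macrophages, were called higher. Cd68 read 354.2 and 423.3 with vehicle and 1202 and 707.6 with interleukin (2.38-fold, adjusted p = 0.00851), and its call ended without vehicle array 1 (log2 change 1.12) and without interleukin array 1 (0.87). The defining leukocyte marker Ptprc read 25.1 and 48.0 with vehicle against 43.1 and 125.7 with interleukin, and the myeloid marker Itgam 82.0 and 13.8 against 41.0 and 86.5, all below the level. Of 14 endothelial markers 8 were below the level on all 4 arrays, Pecam1 and Vwf included, while Kdr, a receptor for vascular endothelial growth factor, read 13235 and 15689.7 with vehicle and 8069 and 11214 with interleukin; the summed signal was 15094 and 17709 against 10084 and 13897. Of 16 epithelial markers 8 were below it, Cdh1 included, with sums of 2376 and 2283 against 2285 and 2621. Signals of different probe sets cannot be compared, and a sum is carried by its brightest members. These were Pdgfrb and Acta2 for renin cells and pericytes, Cd14 for leukocytes and Kdr for endothelium, so the sums do not describe the other markers. The part of these markers in the results was not tested.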

How the data were processed

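RNA of As4.1 cells was measured on 6 Affymetrix Mouse Genome 430 2.0 arrays, 2 per group. The deposited values are MAS5 intensity signals on a linear scale, scaled per array, per the submitters' processing notes and the values (which MAS5 version: not given in the sources used here). Of 45101 probe sets 64 controls were left out, 34945 carried 1 gene symbol, 932 several and 9160 none, and 34741 of the symbols matched RefSeq. The log2 of the deposited signals of 22519 probe sets at or above the median of mean log2 signal was fitted with limma 3.58.1 (R 4.3.3) on all 6 arrays, with a trend of variance on signal and Benjamini-Hochberg adjustment (threshold 0.05). A gene is read through its brightest tested probe set, with other probe sets given where their direction differs. Lost and gained genes came from a fit without the filter on 45037 probe sets.

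The p-values rest on a spread between arrays of a single line that was pooled over the 3 groups and drawn toward a trend on signal across probe sets. Each group had 2 arrays, and this small number limits the precision. The labels' replicate numbers are shared between groups but do not pair the arrays. The members, the lists and the rule for named genes were chosen with earlier results of these data known. The rule took, per list, up to 3 called rises and 3 falls whose groups did not overlap and the brightest member not passing, the genes ranked 11 to 30 by rise and fall, and up to 12 lost and gained genes; genes outside it are said to be named after their values had been seen. Tested on simulated data for this comparison over 22519 probe sets, the fit recovered 4, 22, 40 and 45 of 50 changes of 0.5, 1, 2 and 3 (log2), with 6 false calls. Only these probe sets were changed, a far smaller share than the 16.1% called in the data. The noise was normal and independent between arrays, with no difference in RNA quality between groups. These counts therefore do not carry over to the data. The alternatives tried were other scaling, added constants, filters, variance models, probe set choices, the replicate block and leaving out each array.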

Additional observations from a re-analysis of the deposited data

How the results depend on the processing

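Of 185 called named genes, 152 kept their call without the trend of variance on signal, 171 without the filter, 178 with the replicate block and 180 on the 4 arrays alone. All 185 kept it after quantile normalization and with 32 added, and some calls ended when an array was left out. The direction of the named genes was fixed by the choice of genes whose groups did not overlap. When an array was left out, called probe sets ranged from 882 to 1628 higher and 655 to 1961 lower, transcription factors from 19 to 52 and 17 to 39, receptors from 24 to 44 and 9 to 17, secreted proteins from 78 to 105 and 17 to 26, gained genes from 28 to 52 and lost genes from 0 to 15. Without the trend of variance on signal there were 1003 probe sets higher and 780 lower, 29 and 22 transcription factors, 25 and 10 receptors, 4 gained genes and 0 lost genes (17 lost at an unadjusted p under 0.05 in limma). Lost genes numbered 10 after quantile normalization and 12 with a level 1.5 times as high. Leaving out probe sets that match several transcripts gave 1108 probe sets higher and 1232 lower, 1 probe set per gene gave 869 lower, and a fold of at least 2 gave 584 and 456, each by testing or counting fewer. With the replicate block, 1599 probe sets were higher and 1743 lower, with 50 and 40 transcription factors, 42 and 16 receptors, 107 and 26 secreted proteins, 51 gained and 6 lost genes; same-numbered samples correlated in their deviations at 0.053 between vehicle and interleukin. The filter settings were not run for lost and gained genes, whose fit has no filter. The cause of these shifts was not tested otherwise. Signals under the level of 193.7 limit the folds of the gained and lost genes.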
